A study of Mus musculus and Acomys cahirinus with 84 samples.

Results

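The response of skin fibroblasts to 20 Gy of radiation was compared between the African spiny mouse Acomys cahirinus and wild mice, 12 d after exposure. The comparison was a difference of changes: the change from untreated to 20 Gy within A. cahirinus, minus the same change within wild mice, with the untreated and the 20 Gy library of one replicate number taken as a pair. It used 16 of the 84 libraries of the series, 4 in each of 4 groups: A. cahirinus untreated, A. cahirinus at 20 Gy, wild mouse untreated and wild mouse at 20 Gy. All 16 were made from polyA RNA of cultured primary skin fibroblasts and belonged to the 12 d batch of the labels. No allele and no agent other than radiation is named for any group, and no strain, sex, age or passage number is used here. A further untreated group labelled as passaged, a 10 Gy group, the libraries taken at 24 h and mice labelled C56BL6 are used only where named.

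Ionising radiation breaks DNA, and the breaks activate p53, a transcription factor whose targets include Cdkn1a, the inhibitor p21 that stops cyclin-dependent kinases, and Mdm2, which in turn degrades p53. Cells that do not repair the damage can enter a lasting arrest called senescence, known for silenced replication and mitosis genes, loss of lamin B1 (Lmnb1), a rise of the inhibitor gene Cdkn2a and secretion of cytokines, proteases and growth factor binding proteins, the senescence-associated secretory phenotype (SASP). In skin, fibroblasts make the collagens and proteoglycans of the dermis. Spiny mice are known for shedding skin and regrowing it with little scar.

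Values are counts per M counted reads (CPM), scaled within each species' own table, and changes are log2 fold changes at 20 Gy against untreated from one edgeR quasi-likelihood fit with the replicate number within a species as a block. A replicate number is called an animal below, though the library names do not say whether it marks an animal or a culture. A difference below 0 means that the change was lower in A. cahirinus than in wild mice, and a difference above 0 that it was higher. Adjusted p is that test's p-value after Benjamini-Hochberg adjustment over all genes tested, with a threshold of 0.05, and n is 4 pairs a species throughout. Apart from the cell type markers, levels are not set against each other between the species, since the 2 tables were counted on different gene models. That limit holds for the markers too.

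3 features of the libraries stood apart and bear on every value that follows. The first was the makeup of the A. cahirinus cultures. Fibroblast markers taken as a sum were abundant in all 16 libraries, though not each of them, as Lum was low in every wild library. The 11 markers summed to 31925 to 37689 CPM in untreated A. cahirinus, 21297 to 34510 CPM after 20 Gy, 13460 to 85198 CPM in untreated wild mice and 11565 to 29303 CPM after 20 Gy. The 6 skeletal muscle markers, however, summed to 3631, 1963, 3648 and 3179.9 CPM in untreated A. cahirinus numbers 1 to 4 and to 6049, 1329, 6040.5 and 6449 CPM after 20 Gy, against 1.85 to 23.8 CPM and 7.47 to 21.9 CPM in wild mice. Myod1, the master regulator of muscle cell fate, stood at 133, 65.5, 138 and 99.6 CPM in untreated A. cahirinus and 145, 30.5, 186 and 156 CPM after 20 Gy. Myog, which drives muscle differentiation, stood at 691, 421, 712 and 656 CPM and then 1031, 228, 1019 and 959 CPM. Myod1, Myog and Pax7 were at 0 in all 4 untreated wild libraries. The A. cahirinus cultures therefore held RNA of muscle-lineage genes as well as of fibroblast genes, least of it in number 2, and the wild cultures next to none. Pax7 and Myf5, which mark muscle progenitors, fell in A. cahirinus by 1.69 and 1.76 on the log2 scale (adjusted p = 0.00045 and 0.000483). Keratinocyte, endothelial, haematopoietic, melanocyte, Schwann and adipocyte markers each summed to no more than 44.4 CPM in any library of the 4 groups, and 5 mural (pericyte and smooth muscle) markers to 77.4 to 362.8 CPM. The part of the muscle-lineage RNA in the differences was not tested, and in bulk RNA fewer cells of a type and less RNA per cell cannot be told apart.

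**Figure D1:**
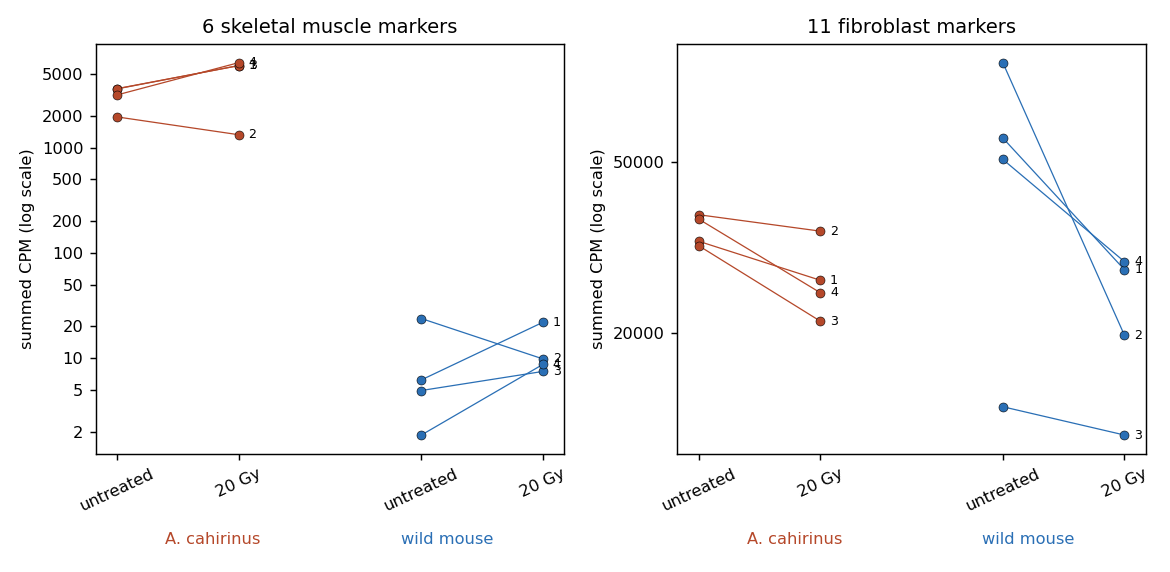
Summed level of 6 skeletal muscle markers (left) and 11 fibroblast markers (right) in each 12 d library, in CPM on a log scale. Lines join the untreated and the 20 Gy library of one replicate number, printed at the right end. The 8 A. cahirinus libraries hold 1329 to 6449 CPM of muscle markers and the 8 wild libraries 1.85 to 23.8 CPM.

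The second was the numbering of the wild libraries. Counting genes that were on (a mean of at least 5 CPM) in one number and off (a mean under 0.1 CPM) in the other, wild numbers 1 and 4 at 12 d differed by 0 genes, while the other pairs of 12 d wild numbers differed by 16 to 69. The 12 d libraries labelled wild 1 differed from the 24 h libraries of the same number by 56 genes and from the 24 h libraries labelled wild 4 by 3. The 24 h libraries labelled wild 1 differed from those labelled wild 3 by 9 genes at 24 h and 22 at 12 d. By this measure the label wild 1 thus went with other libraries at 12 d than at 24 h. Whether a label is wrong at either time was not tested, and wild numbers 1 and 4 at 12 d may not be separate animals. The library names give each number a code of its own, the same at both times and different for wild numbers 1 and 4. The measure did not separate the A. cahirinus numbers, which differed by 0 genes in every 12 d pair. Counts are therefore also given with wild numbers 1 and 4 summed as 1 animal. The third was a split by sex-linked genes: all 8 wild libraries held 5562 to 15048 counts of Xist and 0 of the Y-linked Ddx3y, Uty, Eif2s3y and Kdm5d. All 8 A. cahirinus libraries, by contrast, held 1476 to 1967 counts of Ddx3y, 295 to 495 of Uty and 86 to 456 of Eif2s3y. Kdm5d was at 0 in A. cahirinus too, and no Xist value was available for that species. Species and this split cannot be told apart. Depth was 28.39 to 35.28 M counts in A. cahirinus and 23.14 to 33.53 M in wild mice, so that 3 counts corresponded to 0.085 to 0.13 CPM.

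Of 13913 genes tested, 3224 (23.2%) changed differently at 20 Gy in the 2 species. For 1394 genes (10% of those tested) the change was higher in A. cahirinus and for 1830 (13.2%) it was lower; 632 and 729 of these differed by at least a log2 unit. Among the lower genes, 1045 fell in A. cahirinus with no call in wild mice, 165 fell in A. cahirinus and rose in wild mice, and 377 rose in wild mice with no call in A. cahirinus. Among the higher genes, 739 rose in A. cahirinus with no call in wild mice, 187 rose in A. cahirinus and fell in wild mice, and 343 fell in wild mice with no call in A. cahirinus. The median difference over all genes was -0.05, from medians of -0.01 in A. cahirinus and -0.003 in wild mice. For 4048 genes (29.1%) the 4 pair changes of A. cahirinus lay entirely above or below the 4 of wild mice. With wild numbers 1 and 4 as 1 animal, 2376 genes differed. Without A. cahirinus number 1, 2030 genes differed, and without the pairing 453.

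**Figure D2:**
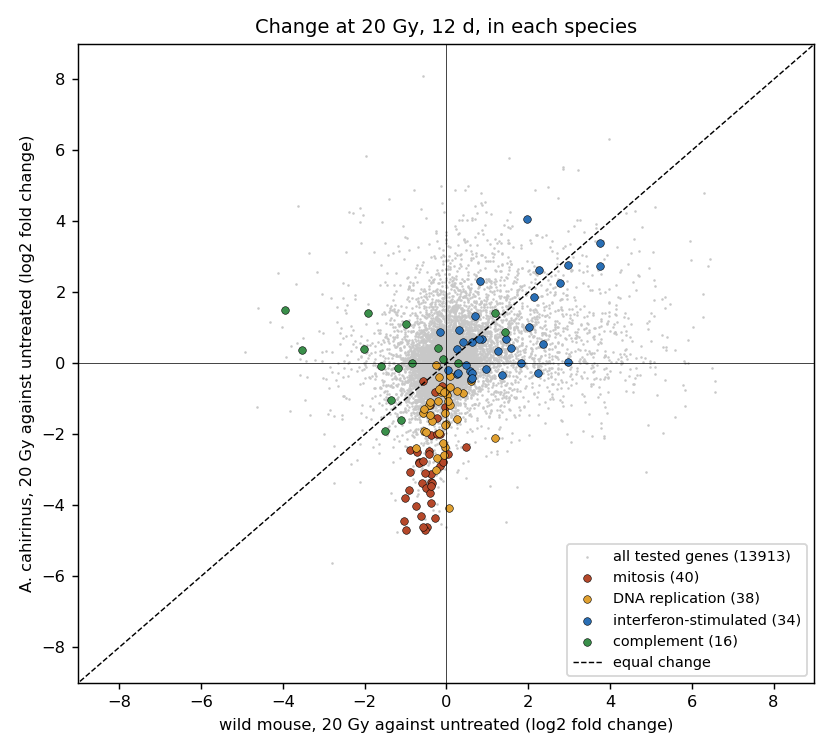
Log2 fold change at 20 Gy against untreated in wild mice (horizontal) and in A. cahirinus (vertical) for 13913 genes, with 4 gene lists in colour and the line of equal change dashed. Mitosis and DNA replication genes lie far below the line near 0 on the wild axis, interferon-stimulated genes spread to the right, and complement genes lie to the left.

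Genes of cell division made up the clearest group. All 40 mitosis genes fell in A. cahirinus at 20 Gy (43.6% of all tested genes changed there, 23.8% downward), with a median change of -2.97, while 9 of 40 fell in wild mice (24.4% of all tested genes changed there, 13% downward), with a median of -0.42. The change was lower in A. cahirinus for 36 of the 40, beside 13.2% of all genes, and higher for 0. Of 38 DNA replication genes, 30 had a lower change in A. cahirinus and 0 a higher one, with medians of -1.24 in A. cahirinus and -0.07 in wild mice. Of 24 recombination and Fanconi anaemia repair genes, 14 were lower and 0 higher. These 3 counts were 34, 28 and 12 with wild numbers 1 and 4 as 1 animal, and 7, 4 and 1 without the pairing.

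Mki67, whose protein Ki-67 coats mitotic chromosomes, stood at 49.5, 53.2, 62.4 and 70.3 CPM in untreated A. cahirinus numbers 1 to 4 and at 3.58, 3.33, 6.55 and 3.86 CPM after 20 Gy. In wild mice Mki67 stood at 18.9, 15.4, 2.31 and 57.8 CPM untreated and 10.4, 6.05, 2.54 and 19.5 CPM after 20 Gy. All 4 irradiated A. cahirinus libraries were below all 4 untreated ones, whereas the wild groups overlapped and wild number 3 was already low without irradiation. The change was -3.79 in A. cahirinus and -1.02 in wild mice, a difference of -2.78 (SE 0.33, adjusted p = 0.000597). Top2a, the topoisomerase that untangles chromosomes before they separate, went from 67.4, 70.2, 92.2 and 96 CPM to 8.52, 3.05, 10.3 and 12 CPM in A. cahirinus, and in wild mice from 33.9, 23.3, 7.68 and 72.7 CPM to 21.6, 15.7, 8.42 and 31.7 CPM. Its difference was -2.77 (SE 0.36, adjusted p = 0.000894). The irradiated A. cahirinus values of Top2a again lay below every untreated one, and the wild groups overlapped. Without the pairing the calls of Mki67 and Top2a were lost (adjusted p = 0.185 and 0.105).

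The mouse promoters of such genes carry letters known from cell-cycle control: TTTGAA, the core of the cell cycle genes homology region, read by the DREAM and MuvB complexes, and CCAAT, read by NF-Y. For mitosis genes that fell together in A. cahirinus, the 120 bases before the RefSeq start (GRCm38.p6, gene strand, 5′ to 3′) are shown for 4 members, chosen from those whose stretch holds TTTGAA on either strand, with these letters in capitals, as TTTGAA or its reverse complement TTCAAA, and CCAAT or its reverse complement ATTGG. Mki67 is at chr7:135716380-135716499, minus strand, Top2a at chr11:99024190-99024309, minus strand, Cdc20 at chr4:118437344-118437463, minus strand and Kif11 at chr19:37376262-37376381, plus strand.
Mki67 promoter: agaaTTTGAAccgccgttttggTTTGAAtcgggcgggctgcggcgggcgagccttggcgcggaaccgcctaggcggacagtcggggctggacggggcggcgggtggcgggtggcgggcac
Top2a promoter: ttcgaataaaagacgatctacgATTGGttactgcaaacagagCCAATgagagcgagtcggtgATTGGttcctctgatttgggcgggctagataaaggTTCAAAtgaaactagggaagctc
Cdc20 promoter: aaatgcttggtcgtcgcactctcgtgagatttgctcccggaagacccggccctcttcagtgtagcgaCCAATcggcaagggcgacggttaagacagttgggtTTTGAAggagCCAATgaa
Kif11 promoter: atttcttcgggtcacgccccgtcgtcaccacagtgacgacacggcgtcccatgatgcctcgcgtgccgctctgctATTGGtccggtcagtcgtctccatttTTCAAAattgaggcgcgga
In 2 of them TTTGAA is in the forward and in 2 in the reverse orientation, and 3 of the 4 also hold CCAAT or ATTGG. Of the 10 division-gene promoters read this way, Kif2c also holds TTTGAA or TTCAAA in this stretch, and Hjurp, Plk1, Kif23, Prr11 and Rrm2 do not.

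Over the 250 bases before the start, on both strands and with matches of different motifs allowed to overlap, TTTGAA was in the promoters of 13 of the 33 mitosis genes found in the RefSeq table (39.4%) and in 12.7% of the 11029 tested genes found there. CCAAT was in 25 of the 33 (75.8%) and in 39.7% of all. Among DNA replication genes, 4 of 32 (12.5%) held TTTGAA and 19 (59.4%) CCAAT. TTTCCCGC, a form of the E2F motif, was in 3 of the 32 replication promoters (9.38%), in 0 of the 33 mitosis promoters and in 1.9% of all. These are matches of letters in the mouse genome, and no A. cahirinus sequence was used.

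6 further members of the mitosis and chromosome machinery were among the 10 largest negative differences: Hjurp, the chaperone that places the centromeric histone; Kif2c, which depolymerises microtubules at kinetochores; Plk1, the polo-like kinase of mitotic entry; Cdc20, which activates the anaphase-promoting complex; Kif23, of the cytokinesis midzone; and Kif11, which separates spindle poles. Hjurp (chr1:88186586-88205405 on GRCm39) stood at 4.48, 6.65, 8.46 and 7.59 CPM in untreated A. cahirinus and 0.285, 0.342, 0.433 and 0.113 CPM after 20 Gy. In wild mice it stood at 22.6, 11.8, 17.1 and 30.6 CPM and 19.8, 14, 14.8 and 23.8 CPM. Hjurp thus fell by over 4 log2 units in A. cahirinus and stayed inside the untreated range in wild mice, with a difference of -4.39 (SE 0.31, adjusted p = 6.47e-05). Its irradiated A. cahirinus values reached down to 0.113 CPM, near the floor of 3 counts, so the size of the fall depends on few reads. Plk1 fell from 14.8, 17.7, 20.5 and 21.5 CPM to 0.570, 0.467, 1.19 and 0.851 CPM in A. cahirinus. The wild values of Plk1 were 8.43, 4.39, 1.73 and 19.4 CPM untreated and 7.37, 3.85, 1.34 and 9.42 CPM at 20 Gy, lower in 4 of 4 pairs, by much less than in A. cahirinus, and the difference was -4.14 (SE 0.29, adjusted p = 6.47e-05). The differences of Kif2c, Cdc20, Kif23 and Kif11 were -4.15, -4.08, -4.02 and -3.41. Ccna2, encoding cyclin A2 of S phase and mitotic entry, differed by -3.66, and Prr11, a gene expressed in dividing cells, by -3.74.

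Rrm2, the small subunit of ribonucleotide reductase, which makes deoxynucleotides, moved in opposite directions. In A. cahirinus it went from 35.3, 37.9, 48.1 and 48.7 CPM to 10.1, 14.3, 10.7 and 5.84 CPM. In wild mice it went from 37.3, 46.3, 4.79 and 37.6 CPM to 142, 69, 8.0 and 100.5 CPM. Rrm2 fell in 4 of 4 A. cahirinus pairs and rose in 4 of 4 wild pairs, a difference of -3.28 (SE 0.38, adjusted p = 0.000587). Fancm, the helicase of the Fanconi anaemia pathway, fell in A. cahirinus (-1.29) with a change of -0.05 in wild mice, a difference of -1.24 (SE 0.19, adjusted p = 0.00181). Both genes kept a call when any 1 animal was left out.

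The untreated wild cultures differed widely in the same genes. The 40 mitosis genes summed to 461, 272, 129 and 930.3 CPM in untreated wild numbers 1 to 4 and 388, 211, 158 and 466 CPM after 20 Gy. In A. cahirinus they summed to 754, 855, 1039 and 1047 CPM and 139, 164, 175 and 155 CPM. Untreated wild number 3 was thus below all 4 irradiated wild libraries, and untreated wild number 4 the highest of the 8. In the passaged untreated groups the sum was higher in every library, 1995, 1163, 1949 and 2017 CPM in A. cahirinus and 1945, 2409, 1454 and 2567 CPM in wild mice. The part of this starting level in the differences was not tested.

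**Figure D3:**
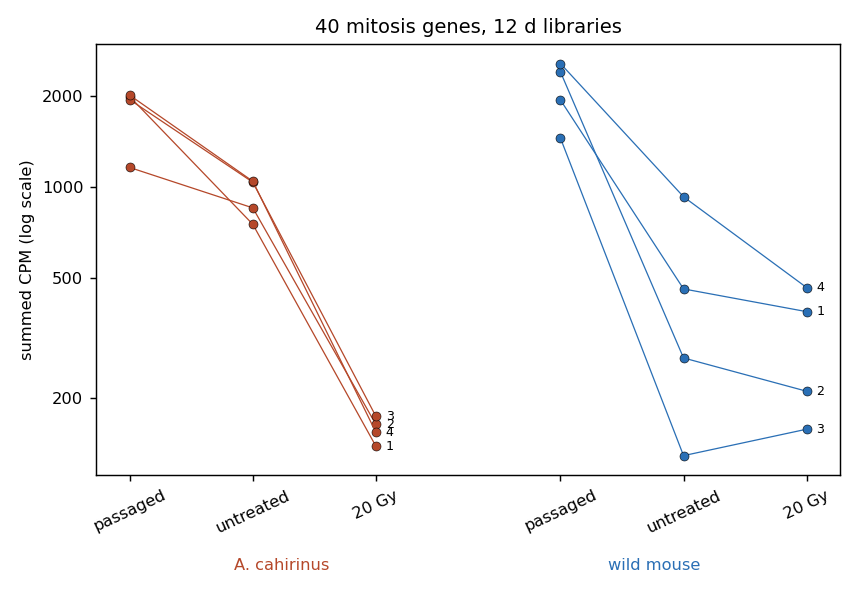
Summed CPM of 40 mitosis genes (log scale) in each 12 d library of the passaged, untreated and 20 Gy groups, lines joining libraries of one replicate number. All 4 A. cahirinus lines drop between untreated and 20 Gy, from 754 to 1047 CPM down to 139.1 to 174.6 CPM, whereas the wild lines drop mainly between passaged and untreated.

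Against the passaged groups in place of the plain untreated ones, a comparison that shares the 20 Gy libraries with the main one, both species fell: the mitosis median was -3.92 in A. cahirinus and -3.10 in wild mice. There, 15 of 40 mitosis genes had a lower change in A. cahirinus and 2 a higher one, beside 14.4% and 12.5% of 13785 genes (26.9% in either direction). Of 38 DNA replication genes 3 were lower and 3 higher. The recombination and Fanconi repair list turned, with 2 lower and 7 higher of 24 (median difference 0.44), and of 20 nuclear envelope and chromatin genes 3 were lower and 4 higher. Mki67 then changed by -4.70 in A. cahirinus and -4.10 in wild mice, a difference of -0.61 (adjusted p = 0.287). Hjurp kept a difference of -3.64 (adjusted p = 8.20e-05).

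Most p53 targets rose in each species. Of 31 targets, 20 rose and 3 fell in A. cahirinus, where 19.8% of all genes rose, and 26 rose and 1 fell in wild mice, where 11.4% did, with median changes of 0.60 and 0.99. The change was lower in A. cahirinus for 8 of 31, beside 13.2% of all genes, and higher for 0. Against the passaged groups 5 were lower and 6 higher, beside 14.4% and 12.5% of all genes. Cdkn1a (chr17:29309936-29319701 on GRCm39) stood at 982, 679, 867 and 686 CPM in untreated A. cahirinus and 2414, 1544, 2104 and 2076 CPM after 20 Gy. In wild mice Cdkn1a stood at 81.8, 37.1, 127 and 73.6 CPM and 449.6, 306, 406 and 412 CPM. Every irradiated library was above every untreated library of its species, and the rise was 1.34 in A. cahirinus against 2.41 in wild mice, a difference of -1.07 (SE 0.26, adjusted p = 0.0153). This call was lost without the pairing (adjusted p = 0.204). Against the passaged groups the order was the other way, 2.27 in A. cahirinus and 1.57 in wild mice (difference 0.70, adjusted p = 0.00782). Mdm2 rose by 1.24 and 1.77 (difference -0.52 (SE 0.17, adjusted p = 0.0507)), and Ccng1, encoding the p53-induced cyclin G1, by 1.67 and 1.54 (difference 0.14 (SE 0.20, adjusted p = 0.657)); neither difference passed the test.

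Pmaip1, encoding the pro-apoptotic protein Noxa, rose from 9.09, 3.61, 6.98 and 7.45 CPM to 54.8, 23.3, 39.07 and 30.8 CPM in A. cahirinus and from 0, 0.0861, 0.456 and 0.166 CPM to 6.47, 4.30, 2.68 and 8.24 CPM in wild mice. The untreated wild values were at or near the floor of 3 counts, so the size of the wild rise, and of the difference of -2.27 (SE 0.64, adjusted p = 0.0284), depends on few reads. Gdf15, a stress-induced cytokine and p53 target, went from 3.44, 4.02, 3.16 and 3.93 CPM to 1.74, 6.75, 2.22 and 3.29 CPM in A. cahirinus. In wild mice it went from 7.99, 0.258, 0.684 and 13.8 CPM to 15.7, 5.03, 3.31 and 34.9 CPM, higher in 4 of 4 pairs. The difference of Gdf15 was -2.03 (SE 0.57, adjusted p = 0.0279), and its call, like that of Pmaip1, was lost without A. cahirinus number 1, 3 or 4. Wild number 3 also decided the call of Gdf15, and wild numbers 1 and 4 each that of Pmaip1. Without A. cahirinus number 1, 3 or 4 the count of p53 targets with a lower change was 5. With any 1 animal left out that count ranged from 5 to 12, and without the pairing it was 1.

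Cdkn2a (chr4:89192708-89212890 on GRCm39), which encodes the inhibitor p16 and the p53 activator ARF, had the opposite sign. It stood at 50.7, 87.3, 34.3 and 50.2 CPM in untreated A. cahirinus and 129, 151, 87.2 and 151 CPM after 20 Gy. The wild values were 103, 75.4, 108.1 and 86.8 CPM and 81.1, 68.6, 78.4 and 84.1 CPM. Cdkn2a rose in 4 of 4 A. cahirinus pairs (1.27), while the wild change was -0.25 (adjusted p = 0.166), and the difference was 1.52 (SE 0.17, adjusted p = 0.000537). It passed under every alternative run, the one without the pairing included, and against the passaged groups (1.99, adjusted p = 5.17e-05). Of the 7 CDK inhibitor genes, 2 had a higher change in A. cahirinus, Cdkn2a and its neighbour Cdkn2b (0.71 (SE 0.21, adjusted p = 0.035)), and 1, Cdkn1a, a lower one, beside 10% and 13.2% of all genes. Leaving out A. cahirinus number 1, 3 or 4 or wild number 2 left 1 higher. Cdkn2b, and other members named beside a count of 5 or fewer, were picked out after their values were seen.

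Lmnb1, encoding lamin B1 of the nuclear lamina, fell from 45.9, 41.1, 59.4 and 54 CPM to 4.79, 4.11, 4.79 and 5.42 CPM in A. cahirinus. Wild mice went from 9.39, 10.8, 11.1 and 17.6 CPM to 7.08, 10.4, 5.92 and 10.4 CPM. Irradiated A. cahirinus libraries lay far below untreated ones, and wild groups overlapped; the changes were -3.38 and -0.53, a difference of -2.85 (SE 0.20, adjusted p = 6.47e-05). Lmnb1 passed under every alternative run. Against the passaged groups the gap was smaller, with changes of -3.86 in A. cahirinus and -2.83 in wild mice. That difference was -1.04 (adjusted p = 0.00665). In the list of 20 nuclear envelope and chromatin genes, 10 had a lower change in A. cahirinus, beside 13.2% of all genes. The 1 with a higher change, beside 10% of all genes, was Sun2, of the complex that links the nucleus to the cytoskeleton. The difference of Sun2 was small, 0.33 (SE 0.10, adjusted p = 0.0426), and was lost when any 1 of 5 animals was left out.

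**Figure D4:**
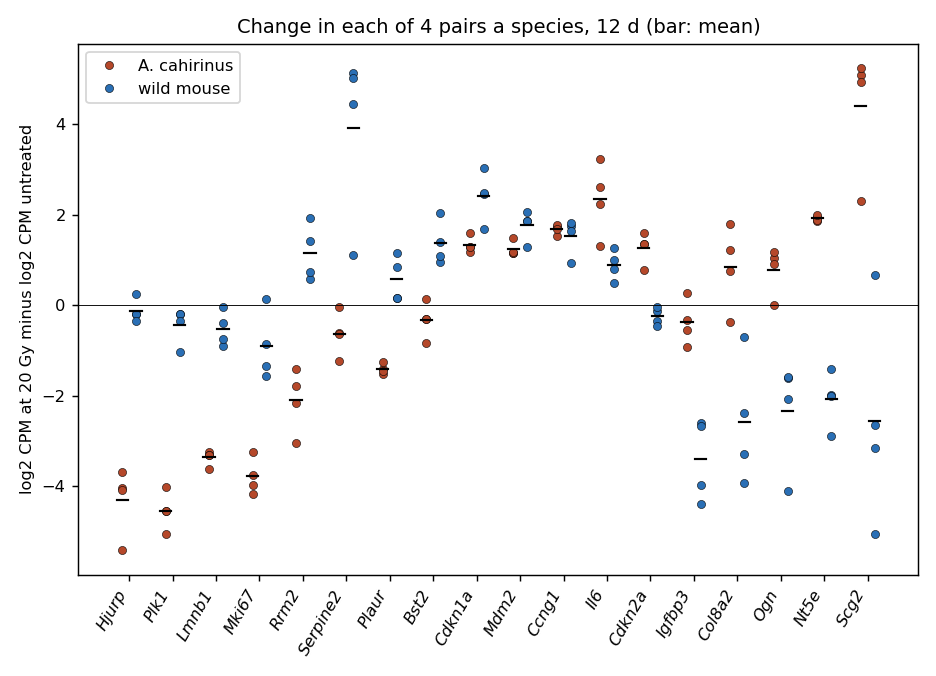
Change in log2 CPM from untreated to 20 Gy in each of 4 pairs of A. cahirinus and of wild mice for 18 genes, with a bar at each mean. A. cahirinus points lie below wild points at the left (Hjurp to Cdkn1a), the species overlap for Mdm2 and Ccng1, and A. cahirinus points lie above from Il6 to Scg2.

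More SASP genes rose than fell in each species. Of 41 tested, 22 rose and 4 fell in A. cahirinus, beside 19.8% and 23.8% of all genes. In wild mice 16 rose and 5 fell, beside 11.4% and 13% of all genes. The medians were 1.39 in A. cahirinus and 0.66 in wild mice. The change was higher in A. cahirinus for 6 and lower for 4 (Gdf15, Plaur and Vegfa among them), a share of 24.4% beside the 23.2% of all genes. The 6 became 3 without A. cahirinus number 3 or wild number 1, and the 4 became 2 without A. cahirinus number 1, 3 or 4. Il6, the inflammatory cytokine interleukin 6, rose from 3.82, 7.42, 1.93 and 1.29 CPM to 18.2, 18.6, 12.1 and 12.7 CPM in A. cahirinus and from 14.8, 9.82, 28.6 and 11.6 CPM to 20.8, 19.6, 68.5 and 20.3 CPM in wild mice. It rose in all 8 pairs, more in A. cahirinus, with a difference of 1.40 (SE 0.35, adjusted p = 0.0179) that was lost without A. cahirinus number 3 or wild number 1 (the highest adjusted p with 1 animal left out was 0.0546). Plaur, the urokinase receptor, fell in 4 of 4 A. cahirinus pairs from 10.3, 10.6, 11.9 and 12.3 CPM to 3.87, 3.67, 4.33 and 5.14 CPM. In wild mice Plaur went from 24.2, 22.9, 51.3 and 37 CPM to 43.3, 25.4, 114 and 41.1 CPM, higher in 4 of 4 pairs, and the difference was -1.99 (SE 0.23, adjusted p = 0.000559). Igfbp3, a binding protein of insulin-like growth factors, stood at 195, 73.6, 149.6 and 166 CPM and 156, 89.3, 79.3 and 113 CPM in A. cahirinus. It fell in 4 of 4 wild pairs, from 1089.8, 34.7, 110.1 and 885 CPM to 69.4, 5.64, 5.14 and 139.8 CPM, and the difference was 3.03 (SE 0.42, adjusted p = 0.00115).

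More interferon-stimulated genes rose in wild mice than in A. cahirinus. Of 34 tested, 25 rose and 0 fell in wild mice (11.4% of all genes rose there) and 11 rose and 1 fell in A. cahirinus (19.8% of all genes rose there), with medians of 0.92 and 0.58. The change was lower in A. cahirinus for 12, beside 13.2% of all genes, and higher for 1, beside 10%. Bst2, encoding tetherin, which holds budding viruses to the cell, stood at 8.75, 7.66, 8.42 and 6.33 CPM in untreated A. cahirinus and 7.10, 8.40, 4.71 and 5.11 CPM after 20 Gy. In wild mice it rose from 31.8, 6.85, 56.8 and 28.3 CPM to 62.2, 28.3, 121 and 74.3 CPM in 4 of 4 pairs. No A. cahirinus pair rose as far as any wild pair, and the difference was -1.67 (SE 0.26, adjusted p = 0.00193). The 1 gene with a higher change in A. cahirinus was Tap1, the peptide transporter of antigen presentation (0.93 against 0.31, difference 0.62 (SE 0.18, adjusted p = 0.0302)), whose call was lost without A. cahirinus number 3 or 4 or wild number 1, 2 or 3. With wild numbers 1 and 4 as 1 animal, 9 were lower, and without the pairing 3, with the call of Bst2 lost (adjusted p = 0.249). Many of these genes were low in A. cahirinus, which limits the calls there. Ifit3, Oas2, Oas3, Oasl1 and Ifi44 were at 0 in all 4 untreated A. cahirinus libraries, and no list member was in untreated wild mice. Against the passaged groups 13 were lower and 3 higher, beside 14.4% and 12.5% of all genes.

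More complement genes fell in wild mice than in A. cahirinus. Of 16 tested, 10 fell and 2 rose in wild mice, where 13% of all genes fell and 11.4% rose. In A. cahirinus 3 fell and 4 rose, where 23.8% of all genes fell and 19.8% rose. The medians were -1.15 in wild mice and 0.25 in A. cahirinus. For 6 the change was higher in A. cahirinus, beside 10% of all genes, and for 0 it was lower. The member picked by the rule for named genes, Serping1, the inhibitor of the first complement proteases, stood at 67.9, 96.2, 75.8 and 87.3 CPM and 75.2, 79.7, 64.8 and 78.1 CPM in A. cahirinus. In wild mice it fell in 4 of 4 pairs, from 405, 86.4, 417 and 193 CPM to 111, 55.1, 263 and 65 CPM, and the difference was 1.06 (SE 0.27, adjusted p = 0.0189), lost without A. cahirinus number 1 or wild number 1 or 4. C3, the central complement protein, had a larger difference, 3.34 (SE 0.32, adjusted p = 0.000283), and is named here after its values were seen: it stood at 0.103, 0.358, 0.140 and 0.440 CPM and 0.444, 0.716, 0.731 and 0.908 CPM in A. cahirinus and 310.3, 2568, 551 and 239 CPM and 60.5, 855, 162 and 60.8 CPM in wild mice. The A. cahirinus values of C3 were all under 1 CPM. Against the passaged groups the sign of the list turned, with 5 lower and 1 higher, beside 14.4% and 12.5% of all genes. Serping1 was among the lower (-1.51).

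Matrix genes split. Of 21 collagens, 9 fell and 1 rose in wild mice, beside 13% and 11.4% of all genes. In A. cahirinus 7 fell and 7 rose, beside 23.8% and 19.8% of all genes. The change was higher in A. cahirinus for 5 (Col3a1, Col4a1, Col8a1, Col8a2 and Col15a1). It was lower for 1, Col5a3, with 4 lower when wild number 2 was left out. The share with a call, 28.6%, was near the 23.2% of all genes. Col8a2, a short-chain collagen, went from 169, 183, 130.1 and 138 CPM to 284, 143, 304 and 476 CPM in A. cahirinus. In wild mice it fell in 4 of 4 pairs, from 97.8, 155, 0.846 and 132 CPM to 9.99, 10.1, 0.493 and 25.2 CPM. The difference of Col8a2 was 3.88 (SE 0.57, adjusted p = 0.00149), with an opposite sign against the passaged groups (-2.85). Col5a3, a minor fibrillar collagen chain, differed by -1.28 (SE 0.30, adjusted p = 0.0141), falling in A. cahirinus from 797, 528, 747 and 1474 CPM to 259, 111, 293 and 336 CPM. Of 26 other matrix genes, 11 fell and 0 rose in wild mice, and 9 had a higher and 2 (Tnn and Vcan) a lower change in A. cahirinus, beside 10% and 13.2% of all genes. Against the passaged groups 10 collagens were higher and 3 lower, and 7 and 3 of the other matrix genes, beside 12.5% and 14.4% of all genes.

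Ogn, the small proteoglycan osteoglycin, fell in 4 of 4 wild pairs, from 716, 7.54, 988 and 441 CPM to 233, 1.75, 57.5 and 148 CPM. In A. cahirinus it went from 121, 228, 62.6 and 129 CPM to 251, 428, 142 and 130.1 CPM, and the difference was 3.12 (SE 0.54, adjusted p = 0.00335). Tnn, encoding tenascin W, fell in both species, in A. cahirinus from 665, 231, 816 and 973 CPM to 7.89, 5.32, 13.9 and 33.8 CPM and in wild mice from 30.1, 242, 0.293 and 22.5 CPM to 7.26, 6.59, 0.211 and 7.29 CPM. Its difference of -2.84 (SE 0.79, adjusted p = 0.0275) was lost without either wild number 1 or 4 and without A. cahirinus number 1 or 3. Of 15 contractile genes, 1 had a higher and 2 a lower change in A. cahirinus, a share of 20% that was below the 23.2% of all genes, the 2 becoming 0 without A. cahirinus number 1, 3 or 4 or wild number 1 or 4. Itga8, the integrin alpha 8 chain, rose by 1.39 in A. cahirinus and fell by 1.58 in wild mice on the log2 scale (difference 2.97 (SE 0.50, adjusted p = 0.00306)). Myh11, smooth muscle myosin, differed by -1.26 (SE 0.38, adjusted p = 0.0376).

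**Figure D5:**
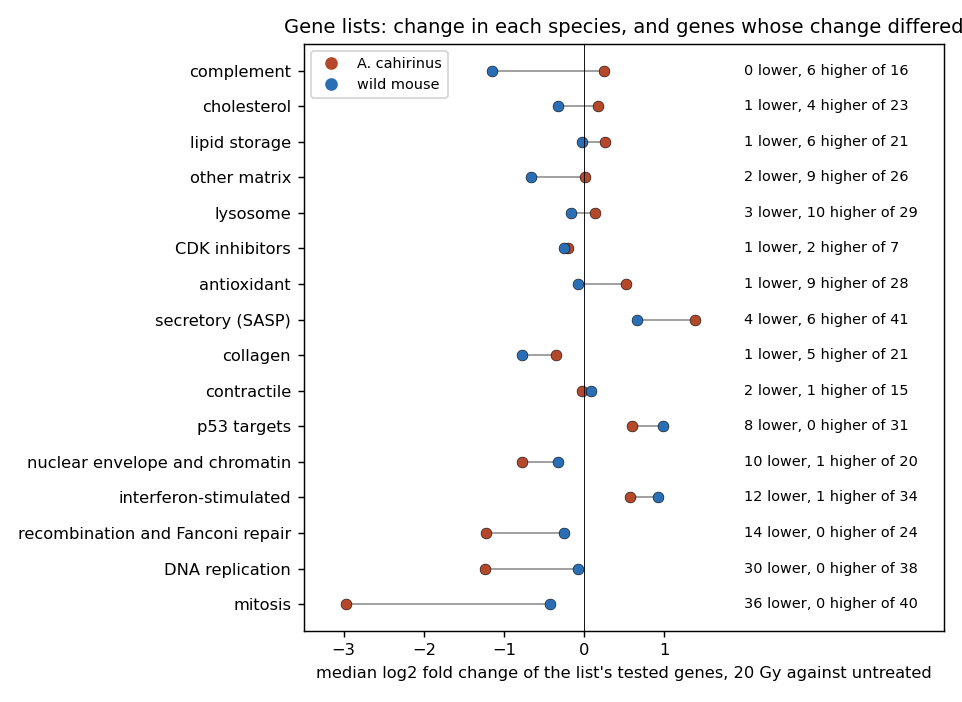
Median log2 fold change at 20 Gy against untreated of each gene list's tested genes in A. cahirinus and wild mice, with the number of genes whose change was lower or higher in A. cahirinus at the right. The widest gap is in mitosis (-2.97 and -0.42), and complement lies at the other end (0.25 and -1.15).

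Among lysosomal and antioxidant genes more differences were higher than lower. Of 29 lysosomal genes, 10 had a higher and 3 (Gusb, Tpp1 and Atp6v1a) a lower change in A. cahirinus, beside 10% and 13.2% of all genes. In A. cahirinus 11 rose and in wild mice 0, beside 19.8% and 11.4% of all genes. Against the passaged groups the list turned, with 1 higher and 7 lower (median difference -0.14), beside 12.5% and 14.4% of all genes. The 3 became 0 or 1 without A. cahirinus number 1, 3 or 4 or wild number 1. Lipa, the lysosomal acid lipase, rose from 93.4, 84.5, 64.2 and 77.2 CPM to 150.2, 97.6, 114 and 139.8 CPM in A. cahirinus and went from 159.5, 127, 102.4 and 136 CPM to 95.8, 101.02, 94 and 79.9 CPM in wild mice. It rose in 4 of 4 A. cahirinus pairs and fell in 4 of 4 wild pairs, a difference of 1.14 (SE 0.19, adjusted p = 0.00279) that passed under every alternative run but was 0.18 against the passaged groups (adjusted p = 0.522). Gusb, the lysosomal glucuronidase, differed by -0.47 (SE 0.13, adjusted p = 0.0263). Of 28 antioxidant genes, 9 had a higher and 1 a lower change in A. cahirinus, beside 10% and 13.2% of all genes. In A. cahirinus 16 rose, beside 19.8% of all genes. Against the passaged groups 7 were higher and 6 lower, beside 12.5% and 14.4% of all genes. Mt1, a metallothionein, went from 9.06, 10.2, 6.07 and 5.72 CPM to 9.76, 9.65, 14.9 and 12 CPM in A. cahirinus and fell from 137, 123, 305 and 96.5 CPM to 70.6, 78.2, 138 and 61.4 CPM in wild mice. The difference of Mt1 was 1.44 (SE 0.29, adjusted p = 0.0065), and -2.31 against the passaged groups. Gsto1, a glutathione transferase, differed by -0.62 (SE 0.19, adjusted p = 0.0372), a call lost without any 1 of 6 animals.

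Of 23 cholesterol genes, 4 had a higher (Ebp, Sc5d and Stard4 among them) and 1 a lower change in A. cahirinus, a share of 21.7% beside the 23.2% of all genes. Against the passaged groups 16 were higher and 0 lower, beside 12.5% and 14.4% of all genes. Dhcr7, the last enzyme of cholesterol synthesis, differed by -0.67 (SE 0.21, adjusted p = 0.0465), a call lost when any animal but wild number 3 was left out. Of 21 lipid storage genes tested, 6 were higher and 1 lower, a share of 33.3% beside the 23.2% of all genes. Lpl, the lipoprotein lipase, rose in A. cahirinus from 0.138, 3.82, 0.526 and 0.997 CPM to 2.44, 19.1, 2.87 and 1.87 CPM and went from 1913, 93.8, 604 and 1195 CPM to 515, 102.2, 121 and 396 CPM in wild mice. The A. cahirinus rise was from a low level, and 3 of 4 wild pairs fell, giving a difference of 3.65 (SE 0.62, adjusted p = 0.00315). Dgat2, which makes triglyceride, differed by -0.84 (SE 0.19, adjusted p = 0.0117). The adipocyte markers summed to 16.7, 11.9, 17.6 and 20.5 CPM in untreated A. cahirinus and 44.4, 8.99, 36.9 and 20.5 CPM after 20 Gy, and to 6.38, 0.0861, 0.163 and 8.88 CPM and 1.80, 0.318, 0.141 and 1.86 CPM in wild mice, where Lep was at 0 in all untreated libraries. Their mean log2 CPM was higher after 20 Gy in 4 of 4 A. cahirinus pairs, by group mean from -1.08 to -0.22, and in wild mice lower by group mean, from -1.91 to -2.37; their part in the lipid result was not tested.

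Of the 10 largest positive differences under the rule for named genes, that of Scg2 was the largest. Scg2 (chr1:79412386-79417837 on GRCm39), secretogranin II of secretory granules, rose from 2.17, 2.56, 2.42 and 0.909 CPM to 76.3, 12.9, 76.3 and 36.8 CPM in A. cahirinus. In wild mice Scg2 went from 2.84, 14.9, 0.130 and 3.15 CPM to 0.395, 0.382, 0.247 and 0.297 CPM. It rose in 4 of 4 A. cahirinus pairs and fell in 3 of 4 wild pairs, with a difference of 8.07 (SE 0.95, adjusted p = 0.000593). Adamtsl2, a glycoprotein of microfibrils, rose from 3.03, 3.07, 2.0 and 2.58 CPM to 25.6, 6.69, 25.1 and 12.9 CPM in A. cahirinus and fell from 14, 1.85, 5.70 and 19 CPM to 0.899, 0.0637, 0.493 and 0.810 CPM in wild mice. All 4 A. cahirinus pairs rose and all 4 wild pairs fell, a difference of 6.67 (SE 0.55, adjusted p = 0.000165). The irradiated wild values of Scg2 and Adamtsl2 were low, that of Adamtsl2 in number 2 below the floor of 3 counts. The sizes of these 2 differences therefore depend on few reads. Nt5e, the ectonucleotidase CD73, which makes adenosine, rose from 38.6, 65.9, 38.6 and 34.9 CPM to 150.2, 240.5, 143 and 139 CPM in A. cahirinus and fell from 3.45, 13.1, 85.3 and 6.96 CPM to 1.26, 3.28, 11.4 and 1.67 CPM in wild mice. Nt5e had the smallest standard error of the 10, with a difference of 4.15 (SE 0.24, adjusted p = 4.34e-05).

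Aldh1a2, an enzyme of retinoic acid synthesis, rose from 0.276, 0.447, 0.246 and 0.264 CPM to 6.88, 2.89, 5.88 and 6.92 CPM in A. cahirinus; the wild change was -0.50 and the difference 4.61 (SE 0.54, adjusted p = 0.000593). Angpt2, a ligand of the vessel receptor Tie2, rose in A. cahirinus from 5.51, 11.9, 3.75 and 3.58 CPM to 60.1, 86.3, 43.3 and 21.7 CPM. Its wild values were 7.95, 0.388, 842 and 18.9 CPM and 2.70, 1.56, 288 and 4.86 CPM, dominated by number 3, and the difference was 4.41 (SE 0.53, adjusted p = 0.000626). Ngfr, the p75 neurotrophin receptor, rose from 0.310, 2.06, 0.597 and 0.293 CPM to 14.3, 19.9, 15.5 and 5.25 CPM in A. cahirinus. In wild mice Ngfr was at 32.8, 0.0431, 0 and 34.7 CPM and then 3.52, 0.860, 0.211 and 3.19 CPM, high only in the untreated libraries of numbers 1 and 4, and its difference was 6.52 (SE 1.21, adjusted p = 0.00459). Ngfr is also 1 of the 5 Schwann cell markers, so their sum includes Ngfr itself. The sum was 4.32 to 6.3 CPM in untreated A. cahirinus and 20.1 to 28 CPM after 20 Gy. In wild mice it was 1.24 to 38.6 CPM untreated and 1.2 to 6.97 CPM after 20 Gy. The part of Schwann cells was not tested. Thbs4, a thrombospondin, Adamts15, a secreted protease, and Lpl completed the 10 together with Col8a2, Thbs4 differing by 3.99 and Adamts15 by 3.84.

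Several of these 10 differences did not pass the test against the passaged groups. There the difference of Adamtsl2 was -0.46 (adjusted p = 0.752) and that of Ngfr -0.80 (adjusted p = 0.519), with wild changes of 2.84 and 4.16. Scg2 differed by 2.26 (adjusted p = 0.183), Nt5e by 1.06 (adjusted p = 0.0681) and Adamts15 by 0.69 (adjusted p = 0.0695), and Col8a2 had the opposite sign. Thbs4, Angpt2, Aldh1a2 and Lpl kept a higher change in A. cahirinus, of 4.39, 2.32, 1.87 and 1.24. For Rrm2 the wild change turned to -1.34, and for Igfbp3 the difference was -0.17.

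2 of the 10 largest negative differences were outside the division genes, and both had a fitted change above 0 in wild mice. Serpine2, the protease inhibitor nexin 1, rose in 4 of 4 wild pairs, from 0.568, 0.517, 5.89 and 0.530 CPM to 22, 12.6, 12.8 and 19.3 CPM. In A. cahirinus it stood at 114, 70.1, 95 and 102.4 CPM and 73.7, 29.5, 61.3 and 98.9 CPM, lower in 4 of 4 pairs, and the difference was -4.17 (SE 0.76, adjusted p = 0.00417). Tnfsf18, the ligand of the T-cell receptor GITR, went from 3.36, 0.172, 1.95 and 2.55 CPM to 3.23, 0.159, 58.5 and 6.37 CPM in wild mice and from 72.8, 30.3, 37.8 and 23.4 CPM to 12.6, 21, 13.7 and 9.53 CPM in A. cahirinus. The fitted wild change of Tnfsf18 rested on number 3 and to a lesser extent number 4, and its difference of -3.48 (SE 0.97, adjusted p = 0.0283) was lost without A. cahirinus number 1, 3 or 4 or wild number 4.

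In libraries outside the main comparison, the 24 h libraries gave the same sign for division genes. At 24 h, 1001 of 13611 genes (7.35%) changed differently at 20 Gy, and 38 of 40 mitosis genes were lower and 0 higher in A. cahirinus, beside 3.97% and 3.38% of all genes. The 24 h differences were -1.16 for Mki67, -2.0 for Hjurp, -2.25 for Rrm2 and -0.93 for Lmnb1, all past the threshold. Cdkn1a at 24 h differed by 0.06 (adjusted p = 0.936), and the 24 h interferon counts were 0 lower and 2 higher of 33. Every 24 h library is in another batch than the 12 d libraries, so the 2 times are not tested against each other. At 10 Gy, a comparison that shares the untreated libraries with the main one, 1276 of 13773 genes (9.26%) differed, 5.07% higher and 4.2% lower, among them 1 mitosis gene (lower), 17 interferon-stimulated genes (lower) and 10 p53 targets (lower) with 1 higher. In C56BL6 mice at 12 d, where 6409 of 12663 genes (50.6%) changed at 20 Gy, 26 of 40 mitosis genes fell with a median of -1.07, 23 of 35 interferon-stimulated genes rose and 9 of 15 complement genes fell. There Mki67 changed by -1.37, Cdkn1a by 0.88 and Cdkn2a by -0.05 (adjusted p = 0.688), and Rrm2 rose by 1.28.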

How the data were processed

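Each value was a whole-number read count for a gene, not normalized, as deposited. Per the file headers, the authors made these counts with featureCounts 2.0.3 against Ensembl release 108 for mice, and against an assembly named AcoCah2, grouped by gene name, for A. cahirinus. No option for strand, read pairs or multiply mapped reads is recorded there, so overlapping and antisense genes are uncertain. HISAT2, Trim Galore and GRCm39 are named, without roles, per the submitters' processing notes. The gene lengths beside the counts, deposited by the authors as other values, entered no test.

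The 18109 symbols found once in each table were joined (56236 of 56980 mouse identifiers matched a symbol; the A. cahirinus table held 19818 names). Library sizes and trimmed-mean (TMM) factors were computed within each table. edgeR 4.0.16 in R 4.3.3 fitted the 16 libraries after filterByExpr, with replicate number within a species as a block, and the quasi-likelihood test of the difference was adjusted by Benjamini-Hochberg over 13913 genes. The replicate numbers pair the libraries: same-numbered deviations correlated at 0.367 to 0.71 in A. cahirinus and 0.667 to 0.841 in wild mice. Deviations of different numbers correlated at a mean of -0.14 and -0.21. Those of wild numbers 1 and 4, however, correlated with each other at 0.481 and 0.599, not far below the same-numbered values. The library names give each replicate number a code shared by its libraries, without saying whether it marks an animal or a culture, so p-values measure the spread between these samples. The squared difference between replicate counts was on average 17.6 to 723.3 times its sampling variance, and each library was counted as 1 sample. Pair changes are differences of log2 CPM with a prior count of 2. A floor is 3 counts and covers counting error only.

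Named genes were a panel of 9, the 10 largest differences each way among genes past 0.05, at 5 CPM in a group of each species and with pair changes not overlapping, and the largest called member each way of each list. The members and lists were chosen with earlier results of these data known. The fit was tested on simulated counts. Alternatives were DESeq2 1.42.0, other size factors, filters and libraries, no pairing, and each animal left out in turn. Fits with wild numbers 1 and 4 summed, and with each species alone, were added after the data were seen. Some results on single genes are not reported here.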

Additional observations from a re-analysis of the deposited data

Results flagged for a closer look

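The change at 20 Gy differed between the species for 3224 genes by the test of the difference itself, as the report describes.

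In 9 of 100 sets of 4 pair changes looked at (50 named genes in 2 species), 1 pair lay far from the other 3, its gap as a share of the range being above Dixon's 95% critical value. Chance flags about 1 in 20 such sets. In A. cahirinus, pair 2 stood apart for Mdm2 (1.49, others 1.14 to 1.18), Top2a (-4.50, others -3.16 to -2.97), Scg2 (2.30, others 4.94 to 5.24) and Aldh1a2 (2.53, others 4.26 to 4.41). Number 2 was also the A. cahirinus replicate number with the least muscle-lineage RNA, and without it 3253 genes differed. Pair 3 of A. cahirinus stood apart for Lmnb1 (-3.62, others -3.30 to -3.25) and Cdc20 (-3.89, others -4.49 to -4.39). In wild mice, pair 3 stood apart for Serpine2 (1.11, others 4.45 to 5.12), pair 4 for Ccna2 (-1.15, others -0.49 to -0.35) and pair 2 for Angpt2 (1.84, others -1.94 to -1.54).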

How the results depend on the processing

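Without the replicate block, 453 genes differed (151 higher and 302 lower), and 2592 genes changed in A. cahirinus and 710 in wild mice; all 453 were among the 3224. With 1 animal left out at a time, 2030 to 3268 genes differed (892 to 1426 higher, 1138 to 1918 lower) and 1819 to 3703 changed in wild mice. The lowest counts were without A. cahirinus number 1 (2030) and, for wild changes, without wild number 4 (1819) or 1 (1880). With wild numbers 1 and 4 summed, 2002 genes changed in wild mice, and 2123 with wild mice fitted alone. The cause of these shifts was not tested. The other alternatives gave 3005 to 4344 genes, the highest with all 12 d groups in 1 fit, and every gene shared with the main calls kept its sign. Of 48 called named genes, 36 passed under every alternative that kept the block and 15 also without it. Calls lost without the block included those of Rrm2, Igfbp3, Ogn and Angpt2 (adjusted p = 0.0689, 0.297, 0.297 and 0.331). There, 3 nuclear envelope and chromatin genes had a lower change in A. cahirinus, beside 10 with the block. Higher changes were left for 2 complement, 2 lysosomal, 1 antioxidant and 2 other matrix genes, beside 6, 10, 9 and 9. The 253 called genes that do not pass the filter in each species alone rest on low counts in one of them.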

Other observations

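Members outside the rule for named genes were picked after their values were seen and are given as values. Isg15, a ubiquitin-like protein made in response to interferon, stood at 8.47, 4.26, 21.7 and 5.13 CPM in untreated wild numbers 1 to 4 and 29.2, 19.5, 95.6 and 37 CPM after 20 Gy. In A. cahirinus it stood at 1.10, 1.40, 1.16 and 0.909 CPM and 0.634, 1.28, 1.11 and 0.794 CPM, and the log2 difference was -2.50 (SE 0.28, adjusted p = 0.000444). Among antioxidant genes, Nqo1, a quinone reductase, differed by 1.04 (SE 0.33, adjusted p = 0.0477) and Hmox1, which breaks down haem, by 1.25 (SE 0.21, adjusted p = 0.00308). Nqo1 stood at 1.27, 2.15, 0.807 and 2.26 CPM untreated and 5.07, 3.98, 5.69 and 6.38 CPM after 20 Gy in A. cahirinus, and at 9.0, 10.3, 10.7 and 6.92 CPM and 17.3, 16.5, 14.5 and 11.5 CPM in wild mice. Among fibroblast markers, Lum, the proteoglycan lumican, differed by 2.44 (SE 0.42, adjusted p = 0.00324), rising in A. cahirinus from 198, 794, 156 and 239.5 CPM to 501, 1756, 493 and 287 CPM, while wild cultures held 0.917, 2.58, 6.67 and 0.364 CPM and 0.359, 0.446, 3.49 and 0.243 CPM.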
